A study of Bos taurus with 16 samples.

Results

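A set of 5 bovine genes whose RNA was present in the muscle of some newborn calves and near absent from that of others is described here: LOC781412 (gene ID 781412), LOC784052 (784052), LOC101904275 (101904275), CYP4B1 (540149) and LOC104970902 (104970902). They are 5 of the 34109 genes listed, and they were chosen by name because their levels in these same libraries looked switched on or off from calf to calf. A gene was called on in a library at 0.5 TPM or more, where TPM is a transcript level corrected for gene length and sequencing depth, and off below it. The levels, the calls, the match between the muscles of a calf and the diet differences of these genes were therefore known when they were chosen, and they are given as a description.

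The study sequenced RNA from round muscle, a hind limb muscle, and from sirloin muscle of 8 newborn Hanwoo calves, a Korean beef breed. This gave 16 libraries. The calves were male and the muscles were taken at birth, before colostrum. By the labels, the dams of the 4 control calves received 100% of their nutritional requirements and those of the 4 treated calves 150% during mid to late pregnancy. The study describes uniform management of all cows before insemination. Each group was thus 4 calves from different dams, each muscle sample was whole tissue, and the sires and genotypes of the calves were not analysed here, so that inherited differences between calves and the diet cannot be told apart for any gene that differs between the groups.

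Library totals were 44473011 to 72446933 counts, so that 1 count of any of the 5 genes lay below the level called on. The 10 skeletal muscle markers were on in all 16 libraries and summed to 68929 to 116947 TPM. The sirloin library of treated replicate 4 stood apart in its adipocyte markers, which summed to 4242 TPM against 137 to 553 TPM in the other 15 libraries.

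A mammalian genome holds many copies of working genes that were made by reverse transcription of messenger RNA or by local duplication. Ribosomal protein genes have left especially many such copies, most of them pseudogenes, which no longer encode the full protein, although some are transcribed. CYP4B1 is a cytochrome P450, one of a family of haem enzymes of the endoplasmic reticulum that oxidise fatty acids and foreign compounds with electrons passed on by the reductase POR, and long non-coding RNAs are transcripts with no known protein product.

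The RefSeq annotation listed LOC784052 and CYP4B1 as protein coding, LOC781412 and LOC101904275 as pseudogenes and LOC104970902 as a long non-coding RNA. The 5 genes lay on 5 different chromosomes. LOC781412 lay beside KLF12, a transcription factor gene, and TBC1D4, a regulator of glucose transporter traffic. LOC784052, described as 40S ribosomal protein S26-like, lay beside DYNC1I2, a dynein subunit gene. LOC101904275 overlapped ALDH5A1, which encodes a mitochondrial enzyme of GABA breakdown, CYP4B1 lay beside its relative CYP4A22, and LOC104970902 lay between HES1, a Notch target, and OPA1, a mitochondrial fusion gene.

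LOC781412, the pseudogene beside TBC1D4 and KLF12, was on in both muscles of all 4 treated calves and off in both muscles of all 4 control calves. In round muscle it had 1, 2, 3 and 1 counts in control replicates 1 to 4, and 404, 69, 139 and 81 counts in treated replicates 1 to 4. In sirloin the same control calves had 4, 2, 2 and 3 counts and the treated calves 156, 98, 90 and 112 counts. The groups did not overlap in either muscle.

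In TPM the on libraries of LOC781412 ran from 1.54 to 6.70 and the off libraries from 0.00575 to 0.0688, so that the lowest on library was 22.3 times the highest off library. Treated replicate 1 was the highest of all in both muscles, at 6.70 TPM in round and 3.52 TPM in sirloin. The fitted diet difference (treated over control) was 6.31 ± 0.746 in round and 5.21 ± 0.551 in sirloin (log2, SE, n = 4 calves per diet), and without treated replicate 1 the round value was 5.53.

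LOC784052, the ribosomal protein S26-like gene, had the reverse direction but did not follow the diets exactly. In round muscle it had 234, 303, 2 and 189 counts in control replicates 1 to 4 and 2, 1, 3 and 2 counts in treated replicates 1 to 4. In sirloin it had 221, 323, 0 and 212 counts in the control calves and 5, 1, 6 and 1 in the treated calves. It was on in both muscles of control replicates 1, 2 and 4 and off in both muscles of control replicate 3 and of every treated calf.

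Where on, LOC784052 stood at 13.9 to 18.8 TPM (median 17.0), a narrow range over 3 calves and 2 muscles, and where off at 0 to 0.357 TPM. The lowest on library was 39.0 times the highest off library, the widest step among the 5 genes. The fitted diet difference was -6.51 ± 1.10 in round and -5.93 ± 1.33 in sirloin (log2, SE, n = 4 per diet). The diet groups overlapped in sirloin, because control replicate 3 had 0 counts there.

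LOC101904275, the pseudogene that overlaps ALDH5A1, was on in both muscles of control replicates 2 and 4 only. Its counts in round muscle were 7, 281, 4 and 417 in control replicates 1 to 4 and 4, 4, 6 and 4 in treated replicates 1 to 4. In sirloin they were 2, 285, 9 and 332 for the control calves and 9, 7, 5 and 9 for the treated calves. Control replicates 1 and 3 thus had 2 to 9 counts, as against 4 to 9 counts in the treated calves.

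The on libraries of LOC101904275 ran from 4.10 to 8.43 TPM and the off libraries from 0.0213 to 0.182 TPM. Replicate 4 was above replicate 2 in both muscles, at 8.43 against 4.13 TPM in round and 8.02 against 4.10 TPM in sirloin. The fitted diet difference was -5.31 ± 1.25 in round and -4.46 ± 1.27 in sirloin (log2, SE, n = 4 per diet), and it rested on 2 of the 4 control calves. Without control replicate 4 it was -4.00 in round and -3.35 in sirloin.

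CYP4B1, the cytochrome P450, was on in treated calves and off in every control library. In round muscle it had 0, 2, 0 and 0 counts in control replicates 1 to 4 and 177, 137, 466 and 0 counts in treated replicates 1 to 4. In sirloin it had 0, 10, 4 and 0 counts in the control calves and 215, 64, 312 and 99 in the treated calves. Treated replicate 4 was the exception, being off in round and on in sirloin, so that the groups overlapped in round muscle and not in sirloin.

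On libraries of CYP4B1 ran from 1.37 to 6.36 TPM and off libraries from 0 to 0.119 TPM. The pooled round counts were 780 in treated and 2 in control calves, a ratio of 369 after scaling to library totals, with an exact 95% interval of 102 to 3051 that covers counting error only. The fitted diet difference was 8.11 ± 1.55 in round, a value that depends on the handling of zeros, and 5.64 ± 0.920 in sirloin (log2, SE, n = 4 per diet). Without control replicate 2, the only control calf with counts in round, the values were 10.29 in round and 6.71 in sirloin, without treated replicate 3 the round value was 7.38, and without treated replicate 4 they were 8.50 and 5.85.

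The calf whose muscles disagreed on CYP4B1 was the calf with the adipocyte-rich sirloin library. In that library ADIPOQ, the fat cell hormone adiponectin, was at 678 TPM, FABP4, a fatty acid carrier of fat cells, at 2825 TPM, and PLIN1, a coat protein of fat droplets, at 160 TPM. In the round library of the same calf they were at 0, 2.94 and 1.79 TPM, and the summed markers were at 160 TPM. Of the 7 markers, LPL and PNPLA2, lipases that muscle also makes, were on in all 16 libraries, and LEP, the hormone leptin, was on in 1 library, with a highest level of 14.9 TPM. The summed markers ran from 137 to 257 TPM in round control, 160 to 446 TPM in round treated, 196 to 489 TPM in sirloin control and 345 to 4242 TPM in sirloin treated libraries. In the 6 other libraries with CYP4B1 on, ADIPOQ was 0.0274 to 0.343 TPM and PLIN1 0.421 to 0.937 TPM. Over the summed markers, the 4 sirloin libraries with CYP4B1 on, at 345 to 4242 TPM, overlapped the 4 with it off, at 196 to 489 TPM. The 3 round libraries with CYP4B1 on were at 296 to 446 TPM, above the 5 with it off, at 137 to 257 TPM. The markers other than the 2 lipases did not share this order. FABP4 was at 0.317 to 4.41 TPM in those 3 libraries and 2.89 to 11.9 TPM in those 5. PLIN1 was at 0.861 to 0.938 against 0.815 to 1.79 TPM, and ADIPOQ at 0.0776 to 0.343 against 0 to 1.13 TPM. The part of fat cells in the CYP4B1 values was not tested, and in whole tissue fewer cells of a type and less RNA per cell cannot be told apart.

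**Figure D1:**
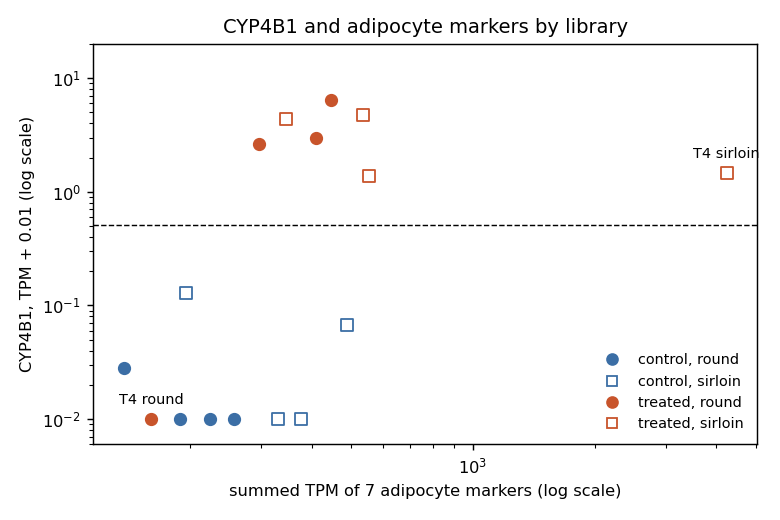
CYP4B1 (vertical axis, TPM + 0.01, log scale) against the summed adipocyte markers (horizontal axis, TPM, log scale) in the 16 libraries, 1 point per library, coloured by diet and shaped by muscle, with the dashed line at 0.5 TPM. The sirloin library of treated replicate 4 sits alone at 4242 TPM of adipocyte markers, and the 3 round libraries above the line, at 296 to 446 TPM, lie to the right of the 5 round libraries below it, at 137 to 257 TPM. The sirloin libraries above the line, at 345 to 4242 TPM, overlap those below it, at 196 to 489 TPM. In all round libraries ADIPOQ, PLIN1 and FABP4 were each at no more than 11.9 TPM of these sums.

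LOC104970902, the long non-coding RNA between HES1 and OPA1, did not go on and off as its choice implies. In round muscle it had 88, 88, 8 and 20 counts in control replicates 1 to 4 and 139, 2394, 537 and 326 in treated replicates 1 to 4. In sirloin it had 100, 140, 285 and 190 counts in the controls and 803, 1880, 322 and 734 in the treated. It was on in 14 of 16 libraries and off only in the round muscle of control replicates 3 and 4, whose sirloin was on, so that it differed by degree.

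Its on libraries spread from 0.984 to 44.0 TPM and its off libraries were at 0.138 and 0.306 TPM. Treated replicate 2 was the highest in both muscles, at 44.0 TPM in round and 34.5 TPM in sirloin. Treated and control calves did not overlap in CPM, counts scaled to library sizes after TMM normalisation, in either muscle, although the gap was small in sirloin, where the highest control calf was at 4.85 CPM and the lowest treated calf at 4.89 CPM. The fitted diet difference was 4.10 ± 0.970 in round and 2.38 ± 0.578 in sirloin (log2, SE, n = 4 per diet). Without treated replicate 2 it was 2.53 in round and 1.66 in sirloin, and without control replicate 1 it was 4.77 in round.

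**Figure D2:**
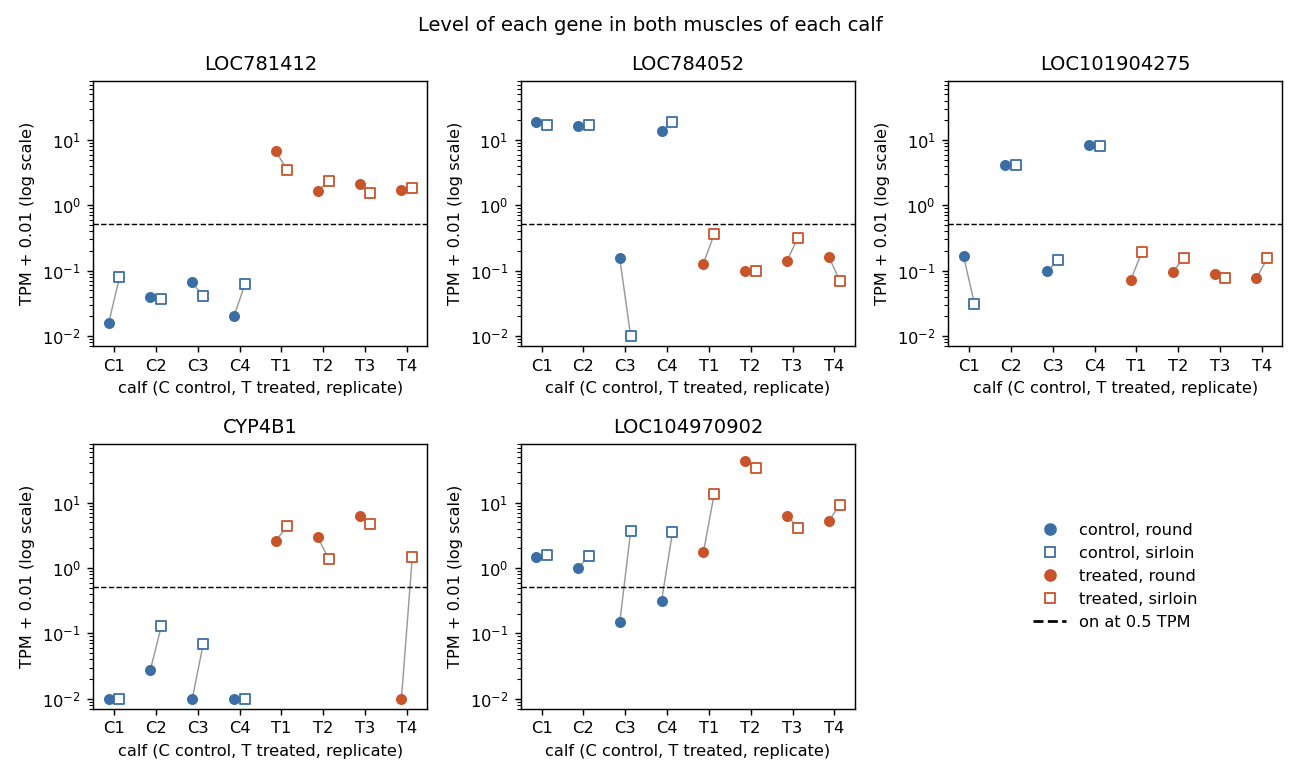
TPM + 0.01 (vertical axis, log scale) of each of the 5 genes in the round and sirloin libraries of each calf (horizontal axis, control replicates 1 to 4, then treated replicates 1 to 4), with a line joining the muscles of a calf and a dashed line at 0.5 TPM. For LOC781412, LOC784052 and LOC101904275 both points of every calf lie on the same side of the dashed line, and 1 calf crosses it for CYP4B1 and 2 for LOC104970902.

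Near the level called on, the lowest library counted as on was the round library of control replicate 2 for LOC104970902, at 0.984 TPM, and the highest counted as off was the sirloin library of treated replicate 1 for LOC784052, at 0.357 TPM. For LOC104970902 the lowest on library was 3.22 times the highest off library, against 22.3, 39.0, 22.6 and 11.6 times for LOC781412, LOC784052, LOC101904275 and CYP4B1. Called on at 0.1 TPM instead, calls changed in 6 libraries of LOC784052, 5 of LOC101904275, 2 of LOC104970902 and 1 of CYP4B1, each from off to on, and at 1 TPM in 1 library, of LOC104970902.

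The first question was whether the muscles of a calf had the same call. They did in 8 of 8 calves for LOC781412, LOC784052 and LOC101904275, in 7 for CYP4B1 and in 6 for LOC104970902, which made 37 of 40 pairs of muscles, or 92.5%. With genes called on at 0.1 TPM the count was 31 of 40, with 3 of 8 calves for LOC101904275 and 6 of 8 for LOC784052, and at 1 TPM it was 36 of 40. Among all 4365 genes called on in some libraries and off in others, 76.9% of the pairs had the same call, and 352 genes, 8.06%, had it in all 8 calves. The 5 genes were chosen for this pattern, so nothing is read from the difference.

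Within the calves that were on in both muscles, the levels in round and sirloin were close for the S26-like gene and the pseudogene LOC101904275. The ratio of round to sirloin CPM was 0.828 to 1.11 over 3 calves for LOC784052 and 0.921 to 1.17 over 2 calves for LOC101904275. It was 0.706 to 2.08 over 4 calves for LOC781412, 0.661 to 2.15 over 3 calves for CYP4B1 and 0.139 to 1.56 over 6 calves for LOC104970902. Among calves on in both muscles, the long non-coding RNA thus had the widest range. Calves whose muscles had different calls were left out. CYP4B1 in treated replicate 4 was at 0 CPM in round and 1.44 CPM in sirloin. LOC104970902 was at 0.190 against 4.85 CPM in control replicate 3 and 0.429 against 4.39 CPM in control replicate 4.

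In a fit with the calf as a block, the round minus sirloin difference was 0.15 ± 0.301 for LOC781412, -0.10 ± 0.313 for LOC784052 and -0.13 ± 0.282 for LOC101904275 (log2, SE, n = 8 calves). It was -0.78 ± 0.759 for CYP4B1 and -1.16 ± 0.517 for LOC104970902. None of the 5 was called by the quasi-likelihood test of edgeR (Benjamini-Hochberg adjusted p under 0.05), where 0.533% of the 22877 genes tested were, and 1 of 5, LOC104970902, had an unadjusted p under 0.05. The shares of all genes were 11.2% at an unadjusted p under 0.05, 3.62% by DESeq2 and 0.455% by limma-voom, and DESeq2 and limma-voom called 0 of 5. The standard errors were widest for CYP4B1 and LOC104970902.

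The diet difference itself was compared between muscles with an interaction term. The difference in round minus that in sirloin was 0.80 ± 0.724 for LOC781412, -0.68 ± 0.724 for LOC784052, -0.86 ± 0.552 for LOC101904275, 2.03 ± 2.07 for CYP4B1 and 1.39 ± 0.986 for LOC104970902 (log2, SE). None was called by edgeR, where 0.00437% of all genes were, or by DESeq2, where 0.0393% were, and none had an unadjusted p under 0.05 against 3.78% of all genes.

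The second question was how calls fell between the diets. LOC781412 was on in 4 treated and 0 control calves, LOC784052 in 0 treated and 3 control calves and LOC101904275 in 0 treated and 2 control calves. CYP4B1 was on in both muscles of 3 treated calves and in the sirloin of the fourth, and in no control calf. The order of calves thus differed from gene to gene, with control replicate 3 off for all 4 of these genes, and control replicate 1 sharing the S26-like gene but not the pseudogene LOC101904275 with replicates 2 and 4.

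Among the 352 genes with the same call in both muscles of every calf, 140 were on in 1 calf, 47 in 2, 20 in 3, 15 in 4, 18 in 5, 39 in 6 and 73 in 7. Genes whose on calves all had the same diet numbered 12 of the 47 on in 2 calves, 3 of the 20 on in 3 and 3 of the 15 on in 4. The 3 genes split exactly by diet were LOC781412, on in treated calves, and SGMS2 and REP15, on in control calves. SGMS2, a sphingomyelin synthase, and REP15, a partner of the trafficking protein RAB15, lay close to the level called on, with lowest on levels of 0.548 and 0.535 TPM and highest off levels of 0.397 and 0.406 TPM. The lowest on level was at least 4 times the highest off level in 56 of the 352 genes, or 15.9%.

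**Figure D3:**
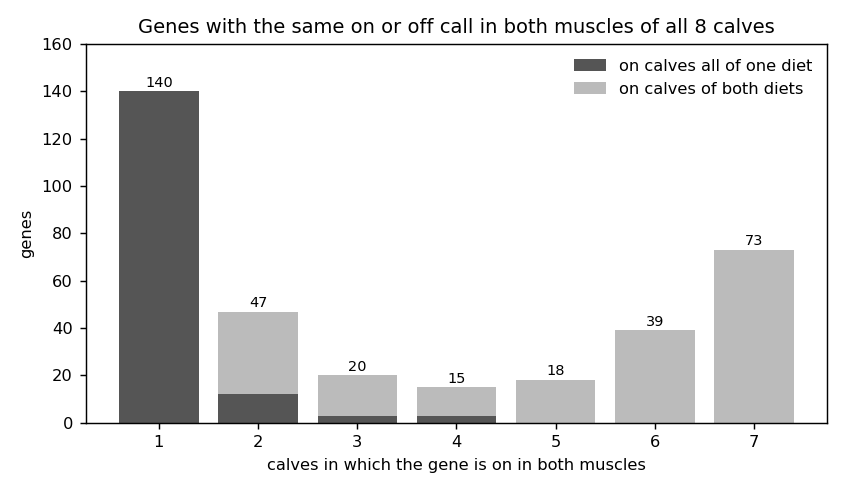
The number of genes with the same call in both muscles of every calf (vertical axis) by the number of calves that were on (horizontal axis, 1 to 7), out of 352 genes, with genes whose on calves all had the same diet marked apart. Genes on in 1 calf are the most frequent at 140, and the genes on in 4 calves number 15, of which 3 follow the diets.

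By the diet fits, 1 of the 5 genes, LOC781412, passed an adjusted p of 0.05 in edgeR in round muscle, where 0.0185% of 21677 genes did, and the same gene in sirloin, where 0.00918% of 21776 genes did. DESeq2 called LOC781412, LOC784052 and LOC101904275 in round (0.208% of all genes) and LOC781412, LOC101904275, CYP4B1 and LOC104970902 in sirloin (0.0597%), and limma-voom called none in round (0.00461%) or sirloin (0% of all genes). In CPM, groups did not overlap for LOC781412, LOC784052, LOC101904275 and LOC104970902 in round, as for 1.82% of all genes, and for LOC781412, CYP4B1 and LOC104970902 in sirloin, as for 1.63% of all genes. For LOC784052 and LOC101904275 in round this rested on a few counts, since in counts and TPM control replicate 3 of the first lay within the range of the treated calves, as did control replicate 3 of the second in counts. These contrasts were used in the choice of the genes, and nothing is read from the counts.

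Leaving out 1 calf moved these calls. The edgeR call of LOC781412 was lost in 4 of 8 such fits in round, those without control replicate 1, 2 or 4 or treated replicate 3, and in 8 of 8 in sirloin, with the direction kept in all 16 fits (5.53 to 6.81 in round and 4.92 to 5.55 in sirloin, log2). Over all genes, these fits called 0 to 3 in round and 0 to 1 in sirloin, against 4 and 2 with all calves. Calls were thus fewer over all genes, not for LOC781412 alone. LOC784052 was called in both muscles without control replicate 3, the control calf that was off, and CYP4B1 was called in round without treated replicate 4. Over all genes, 3 were called in round and 1 in sirloin without control replicate 3, and 3 in round without treated replicate 4. Each of these fits left out the calf whose calls departed from the diets, in a gene chosen for its calls. Nothing is therefore read from these calls.

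The spread of each gene over the 16 libraries was divided into a share between the diets, a share between calves of the same diet and a share between the muscles of a calf, on log2(CPM + 0.5). For LOC781412 the shares were 87.9%, 9.49% and 2.65%. For LOC784052 they were 58.5%, 41.2% and 0.221%, and for LOC101904275 they were 32.6%, 67.0% and 0.381%. For that pseudogene the share between calves of the same diet was the larger, but the order turned without control replicate 1 (52.3% between diets and 47.4% between calves) or 3 (51.2% and 48.4%).

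For CYP4B1 the shares were 68.9% between the diets, 23.4% between calves of the same diet and 7.74% between the muscles, and for LOC104970902 they were 52.0%, 23.0% and 24.9%. The medians over the 4365 genes with mixed calls were 4.38%, 56.3% and 34.4%, and over the 352 with the same call in every calf 5.29%, 78.0% and 13.4%. Without control replicate 3 the share between diets rose to 99.4% for LOC784052, and without treated replicate 1 it was 98.6% for LOC781412, so that single calves set much of the share within a diet.

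**Figure D4:**
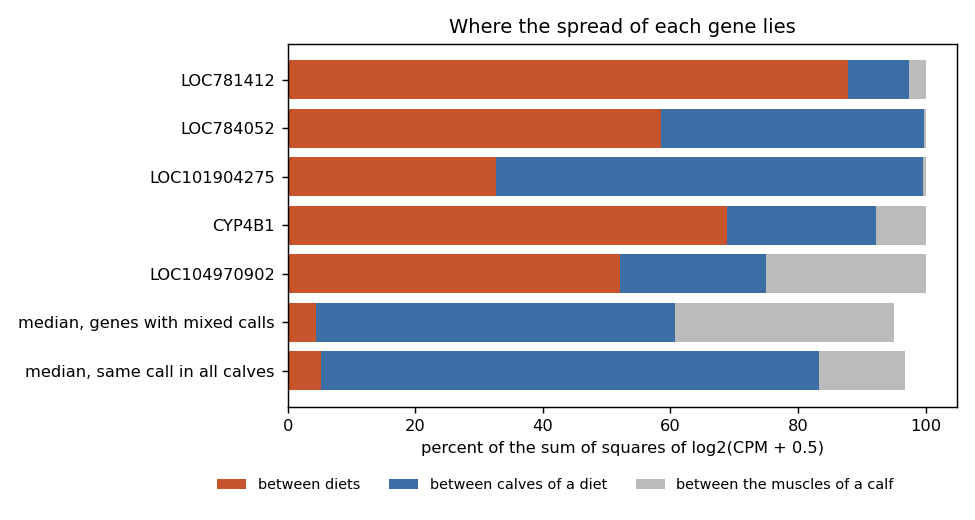
Shares of the sum of squares of log2(CPM + 0.5) over the 16 libraries (horizontal axis, percent) that lay between diets, between calves of the same diet and between the muscles of a calf, for each of the 5 genes, with medians over genes with mixed calls and over genes with the same call in every calf. Each median was taken share by share, so that those bars need not reach 100. The share between muscles is 0.221% for LOC784052 and 24.9% for LOC104970902.

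The nearest genes with counts were 50, 5 on each side of the 5 genes. Of these, 29 were on in all 16 libraries, 15 were off in all and 6 were mixed. Over all 34109 genes listed, also those without counts, 32.5% were on in all, 54.7% off in all and 12.8% mixed. None of the 50 had the calls of the gene it flanked. A gene on or off in all libraries cannot have them. Over all genes, identical calls were found in 11 genes for LOC104970902, 1 each for LOC784052 and LOC101904275 and 0 for LOC781412 and CYP4B1. Nothing is therefore read from the lack of a match. EdgeR called 0 of the 50 for diet in round, diet in sirloin, muscle or the interaction. At an unadjusted p under 0.05 there were 3, 5, 5 and 2, a threshold that 4.41%, 3.91%, 11.2% and 3.78% of all genes tested passed. DESeq2 called 0 of the 50 for diet. With 10 genes on each side, 100 in all, edgeR again called 0 for diet.

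KLF5, a zinc finger transcription factor gene near LOC781412, had a diet difference of -1.66 ± 0.457 in round and -1.01 ± 0.266 in sirloin (log2, SE, n = 4 per diet), the opposite sign to the pseudogene. Its adjusted p-values were 0.864 and 0.876 by edgeR, so it did not pass the test. It was chosen for mention after its values were seen.

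RPS26, the gene for the ribosomal protein that LOC784052 resembles, was on in every library, at 261 to 474 TPM in the 6 libraries where LOC784052 was on and at 377 to 641 TPM in the 10 where it was off. LOC784052 counts were 1.37 to 2.14% of RPS26 counts in the on libraries and 0 to 0.0252% in the off libraries. RPS26 did not pass the diet test (0.22 ± 0.299 in round and 0.34 ± 0.198 in sirloin, log2, SE, adjusted p = 0.952 and 0.876 by edgeR). How reads that match several copies of the S26 gene were assigned is not given in the sources used here, and the part of such reads in the values of LOC784052 was not tested.

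**Figure D5:**
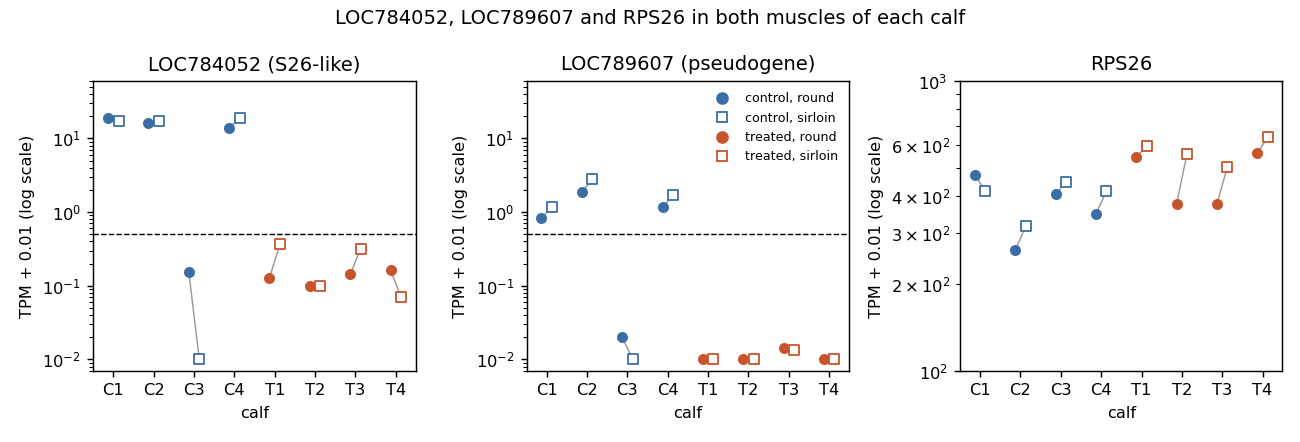
TPM + 0.01 (vertical axes, log scale, each panel with its own range) of LOC784052, LOC789607 and RPS26 in the 16 libraries by calf (horizontal axis, control replicates 1 to 4, then treated replicates 1 to 4), with the dashed line at 0.5 TPM in the panels of LOC784052 and LOC789607. LOC784052 and LOC789607, a pseudogene picked from all genes for its like calls, are on in the same 6 libraries. RPS26 stays between 261 and 641 TPM in all 16.

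The 32 genes for proteins of the small ribosomal subunit were on in all 16 libraries. None was called by edgeR for diet in either muscle, with 0 and 2 of 32 at an unadjusted p under 0.05 against 4.41% and 3.91% of all genes, and DESeq2 called 0. Their median diet difference was 0.07 in round and 0.27 in sirloin against 0.02 and 0.03 over all genes tested (log2).

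ALDH5A1, the gene that LOC101904275 overlaps, was on in every library and varied otherwise. Its counts in round were 614, 1785, 1108 and 636 for control replicates 1 to 4 and 1830, 1682, 1100 and 864 for treated replicates 1 to 4. In sirloin they were 628, 2581, 1723 and 522 for the control calves and 1844, 779, 627 and 1930 for the treated calves.

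Of the calves with LOC101904275 on, control replicate 2 had ALDH5A1 at 22.7 CPM in round and 35.1 CPM in sirloin, and control replicate 4 had it at 13.6 and 12.1 CPM, within a range over all calves of 13.6 to 34.2 CPM in round and 9.53 to 37.2 CPM in sirloin. The diet difference of ALDH5A1 was 0.34 ± 0.320 in round and -0.00 ± 0.451 in sirloin (log2, SE). The methods of the study name a stranded library kit and the labels one that they do not call stranded, and whether the reads were counted by strand is not given in the sources used here, so reads of the pseudogene and of ALDH5A1 may not be fully separated.

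The relatives of CYP4B1 beside it on the chromosome were silent in most libraries. CYP4A11, a fatty acid omega-hydroxylase, had 75 counts in the round muscle of treated replicate 3 and 370 counts (4.77 TPM) in the sirloin of treated replicate 4, 4 and 8 counts in the sirloin of control replicates 1 and 2, and 0 elsewhere. CYP4A22 had 16 and 25 counts in those first 2 libraries and 0 in the other 14. The libraries with CYP4B1 on and CYP4A11 at 0 were both libraries of treated replicates 1 and 2 and the sirloin of treated replicate 3.

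Of 25 cytochrome P450 and electron donor genes listed beside CYP4B1, 18 had counts, 9 of them were on in all libraries and 5 were mixed, and none of the 5 had the same call in both muscles of every calf. POR, the reductase that serves the P450 enzymes, was on throughout, at 13.7 to 56.9 TPM. EdgeR called 0 of the list for diet in either muscle or for the muscle difference, with 3 of 18, 3 of 17 and 2 of 18 at an unadjusted p under 0.05 against 4.41%, 3.91% and 11.2% of all genes, and DESeq2 called 0. The median diet difference of the list was 0.11 in round and 0.46 in sirloin, against 0.02 and 0.03 over all genes (log2).

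For each of the 5 genes, the 3 genes with the most similar calls over the 16 libraries were sought among all genes listed. They were thus picked for their calls in these libraries, and nothing is read from their likeness. Calls alike in all 16 libraries were found for LOC784052, LOC101904275 and LOC104970902, and not for LOC781412 or CYP4B1. CYP4B1 and LOC781412 were each among the 3 most like the other, with calls that differed in 1 library, the round muscle of treated replicate 4. They lay on different chromosomes, and both were chosen for their calls in these libraries, so nothing is read from this likeness.

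LOC789607, a pseudogene on another chromosome, had the same 16 calls as LOC784052. It had 12, 41, 1 and 19 counts in the round muscle of control replicates 1 to 4, and 18, 62, 0 and 22 counts in their sirloin. In treated calves it had 0, 0, 1 and 0 counts in round and the same in sirloin. It was at 0.813 to 2.78 TPM where on and at no more than 0.0101 TPM where off, and control replicate 2 was the highest in both muscles.

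LOC513210, a fatty acid amide hydrolase-like gene and the 10th gene with counts after CYP4B1 along its chromosome, shared 15 of 16 calls with LOC781412. Its counts in round were 32, 11, 5 and 30 for control calves and 56, 126, 157 and 99 for treated calves, and in sirloin 41, 34, 30 and 18 against 92, 37, 124 and 151. Its diet difference of 2.23 ± 0.652 in round and 1.53 ± 0.453 in sirloin (log2, SE) did not pass the test (adjusted p = 0.864 and 0.876 by edgeR), and it was a difference of degree.

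LOC104972118 was 1 of 11 genes with the same calls as LOC104970902. It was at 0.216 and 0.245 TPM in the round muscle of control replicates 4 and 3 and at 2.25 to 41.7 TPM in the other libraries. Unlike the long non-coding RNA, it was lower in round than in sirloin within calves past the test (-2.99 ± 0.548, log2, SE, n = 8 calves, adjusted p = 0.0336 by edgeR). LOC112443509 shared all 16 calls of LOC101904275.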

How the data were processed

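Read counts per gene and TPM values were used as deposited by the authors, for 34109 genes in 8 round and 8 sirloin libraries. According to the labels, the authors trimmed reads with Trimmomatic, aligned them with STAR to ARS-UCD1.2 and counted them with featureCounts from poly(A)-selected libraries, whereas the methods of the study name SortMeRNA, HISAT2, Bowtie2 and StringTie on a stranded kit with depletion of ribosomal RNA and globin; the files do not settle which. The strand and multimapping settings of the counting are not given in the sources used here. Deposited tables of the authors' own fold changes and p-values were not used.

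The genes and the gene lists were chosen with earlier results of these data known. Counts were fitted with edgeR 4.0.16 (R 4.3.3; TMM, quasi-likelihood, genes with at least 1 count in a library), per muscle for diet, and with a calf block for muscle and interaction. DESeq2 1.42.0 and limma-voom 3.58.1 were alternatives. Muscles with the same replicate number were paired as 1 calf: their deviations correlated at 0.250 to 0.595, against -0.342 to 0.281 for other calves. Named were the 5 genes, their neighbours, overlapping and parent genes and, per gene, the 3 most like by calls. Exceptions are marked. Symbols and gene order came from RefSeq on ARS-UCD2.0 (90.2% of IDs matched), so no coordinates are given. The fits were also run on simulated counts with the same spread setting for all genes. The 5 genes switch on or off between calves, so the simulation does not bear on their fits. Intervals cover counting error only, and p-values the spread between these calves.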

Additional observations from a re-analysis of the deposited data

Results flagged for a closer look

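In 5 of the 20 groups of 4 libraries formed by gene, muscle and diet, 1 library lay far from the other 3 in CPM by Dixon's criterion at the 95% level. For normally distributed values about 1 in 20 groups would exceed it. That rate does not apply here, since the genes were chosen for differing between calves and many values lay near 0. Nothing is read from the number of groups. The S26-like gene LOC784052 was lowest in the sirloin of control replicate 3, at 0, the control calf that was off. The long non-coding RNA LOC104970902 was highest in the round muscle of treated replicate 2, at 48.7 CPM, and LOC781412 was highest in the round muscle of treated replicate 1, at 6.53 CPM. In groups that were off throughout, LOC781412 stood at 0.0711 CPM in the round muscle of control replicate 3, or 3 counts, and CYP4B1 at 0.0254 CPM in the round muscle of control replicate 2, or 2 counts, both within a few counts of the other libraries.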

How the results depend on the processing

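The number of the 5 genes called for diet in round, 1 by edgeR, was 3 by DESeq2, 0 by limma-voom, 0 with the replicate block, 2 at an adjusted p under 0.2 and 0 to 2 with 1 calf left out. In sirloin, also 1, it was 4 by DESeq2, 0 by limma-voom, 0 with the replicate block and 0 to 1 with 1 calf left out. The replicate block across diets pairs calves that share only a number (same-number correlations -0.154 to 0.188, other numbers -0.275 to 0.363). The directions of all diet differences of the 5 genes were kept. Round minus sirloin turned for values near 0: LOC781412 was -0.0065 with no replicate block, LOC784052 and LOC101904275 were 0.018 and 0.022 by limma-voom, and without treated replicate 1 the 3 genes were at -0.11, 0.021 and 0.013 (log2). With 1 calf left out they ranged from -0.11 to 0.30, -0.20 to 0.02 and -0.29 to 0.01.

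Over all genes, the counts called for diet were 4 in round and 2 in sirloin by edgeR, 45 and 13 by DESeq2, 1 and 0 by limma-voom, 2 and 0 with the replicate block and, at an adjusted p under 0.2, 10 in round. The muscle difference was called in 122 genes, 829 by DESeq2, 14 with no replicate block and 44 to 368 with 1 calf left out, and the interaction in 1, 9 by DESeq2, 0 with no replicate block and 0 to 2 with 1 calf left out. The median share of the spread between calves of the same diet over the 5 genes, 23.4%, was 31.2% with a pseudocount of 2 and 20.8 to 26.8% with 1 calf left out. A list gene was called for diet by DESeq2 in 1 case, the tendon marker TNMD in round, and in 0 by edgeR, an alternative chosen after seeing the data. Genes with the same call in every calf were 4.62% of mixed genes when called on at 0.1 TPM, against 8.06%, and those split exactly by diet 1 at 0.1 or at 1 TPM, against 3, and 7 without control replicate 3 or 5 without treated replicate 4. The filterByExpr filter removed LOC784052 and LOC101904275 from both muscles and CYP4B1 from round. The causes were not tested, and 4 calves per diet limit all diet values.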

Other observations

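Genes of the MHC class II complex, which serve in presenting antigens to T cells, also included genes with the same call in both muscles of every calf. Some genes of the complex differ in number of copies between cattle haplotypes. Of the 9 genes found, 3 were on in all 16 libraries and 6 were mixed. Of those 6, 2 had the same call in both muscles of every calf, BOLA-DQB and BOLA-DOA, against 8.06% of all mixed genes. BOLA-DQA2, BOLA-DQA5, BOLA-DMB and BOLA-DOB each had it in 7 of 8 calves. With so few genes, nothing is read from the share. BOLA-DQB was on in both muscles of control replicate 1 (251 and 63 counts in round and sirloin) and of treated replicate 2 (73 and 32 counts), with 0 counts in both muscles of control replicate 3 and treated replicates 1 and 4. BOLA-DOA was on in both muscles of treated replicate 2 (102 and 57 counts). These calls followed single calves of either diet. BOLA-DRA, which was on in all 16 libraries, was also highest in these calves. It was at 175 and 75.0 TPM in round and sirloin of treated replicate 2 and 56.7 and 14.9 TPM in control replicate 1. The other calves were at 2.66 to 14.7 TPM. Neither the number of copies nor the general class II level of a calf was tested as a cause of the calls. BOLA-DQA2 had 329 and 154 counts in treated replicate 2, 11 and 27 counts in control replicate 3 and 0 counts in the other 12 libraries. In control replicate 3 it was off in round and on in sirloin, at 0.294 and 0.546 TPM. EdgeR called none of the 9 for diet, with 0 in round and 1 in sirloin at an unadjusted p under 0.05 against 4.41% and 3.91% of all genes, and DESeq2 called 0.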
